A study of Mus musculus with 6 samples.

Results

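The genes described here encode the proteins of the cytosolic ribosome, which joins a small and a large subunit, each built from ribosomal RNA and its own set of proteins. Members were chosen by name: every array probe, control spots apart, whose gene name has the form Rps or Rpl followed by a number, an optional letter and digit, or is Rpsa, Rplp0, Rplp1 or Rplp2. This gave 80 of the array's 27962 gene names, read by 134 of the array's 41174 probes: 57 probes for 32 genes of the small subunit and 77 probes for 48 genes of the large subunit. The rule uses names and no measured value. The array holds 1 probe for 40 of these genes and 2 to 4 probes for the other 40. Names were those of the array's design; 110 probes carried a transcript accession that RefSeq gives to the same gene symbol, 2 belonged to Rps3a, which RefSeq now calls Rps3a1, and 22 had an accession without a match in the gene table used.

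The study compared livers of mice lacking SIRT1 in the liver (SIRT1 LKO) with those of Lox control mice. SIRT1 is an NAD-dependent protein deacetylase. All animals were male, 10 weeks old, on a 95% C57BL/6 background, fed chow without restriction and killed at 4 pm. Each replicate was liver RNA pooled from 2 mice, giving 3 LKO pools and 3 control pools, 6 mice a group, each pool on a 1-colour Agilent whole mouse array. The promoter driving the deletion is not given in the labels, whole liver holds cells other than hepatocytes, and the pooled animals cannot be told apart. A single slide carried the 3 control pools, another LKO pools 1 and 2, and LKO pool 3 was alone on its slide, so slide and genotype cannot be told apart.

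Levels are given as log2 intensity minus the array's 75th percentile, and differences are LKO minus control on that scale. The 75th percentile of intensity lay between 1005 and 1056 on 5 arrays and was 1289 on the array of LKO pool 3; well above background were 52.2% to 66.4% of the probes on an array. LKO pool 3 stood apart in a further way: its column of the deposited value table was within 1% of the scanner file for 0.852% of probes, against at least 99.7% on the other 5 arrays, with a median ratio of 0.719. Scanner values were used, and counts with the value table or without that pool are given beside the results they touch. Hepatocyte markers (Alb, Apoa1, Ttr, Tat, Cps1, Hnf4a and Serpina1a, of which 5 genes had probes) were well above background on all 6 arrays for 7 of 7 tested probes, with a summed linear level of 572 to 711 in LKO pools and 586 to 651 in control pools. Among them both probes of the hepatocyte factor Hnf4a were lower in value (-0.44 ± 0.13 and -0.23 ± 0.11, adjusted p = 0.133 and 0.289), the first with every LKO pool below every control; whether this bears on the members was not tested. Of the 7 tested hepatocyte probes 3 were above 0, and the median difference of that list was -0.08 (0.003 with the value table). Sirt1 itself had 2 tested probes. The first read -0.07, 0.09 and 0.16 in LKO pools and 0.29, 0.37 and 0.24 in control pools, a difference of -0.24 ± 0.10 (SE; adjusted p = 0.243). The second read -0.80, -0.85 and -0.48 in LKO pools and -0.76, -0.64 and -0.67 in control pools, a difference of -0.02 ± 0.12 (adjusted p = 0.941). Where these probes lie relative to the deleted part of the gene is not known here, so they do not check the labels.

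Ribosomal protein genes are transcribed at high rates in liver, a tissue that exports large amounts of plasma protein. Their mRNAs begin with a run of pyrimidines, the terminal oligopyrimidine (TOP) tract, through which the nutrient-sensing kinase mTOR controls their translation. Several members have second roles outside the ribosome, such as binding Mdm2, the ubiquitin ligase of p53.

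The following starts, from RefSeq's promoter table on GRCm38.p6, are shown because they carry the pyrimidine tract that marks the family, in genes that recur in the results below. Each runs 5′ to 3′ on the gene's strand from 30 bases before to 20 bases from the annotated start, with the pyrimidine run across the start in capitals.
Rpl7a (chr2:26910777-26910826, + strand): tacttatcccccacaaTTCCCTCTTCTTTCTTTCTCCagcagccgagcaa
Rpl27a (chr7:109519165-109519214, + strand): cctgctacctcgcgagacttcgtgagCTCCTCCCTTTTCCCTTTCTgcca
Rplp2 (chr7:141447621-141447670, + strand): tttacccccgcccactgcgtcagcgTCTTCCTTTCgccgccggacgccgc
Rps6 (chr4:86857348-86857397, - strand): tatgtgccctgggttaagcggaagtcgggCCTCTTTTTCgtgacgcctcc
Rps18 (chr17:33955646-33955695, - strand): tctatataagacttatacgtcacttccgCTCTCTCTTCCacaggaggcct
Rps24 (chr14:24490648-24490697, + strand): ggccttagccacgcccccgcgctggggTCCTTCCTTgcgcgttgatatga
The capital runs of these examples are 21 bases in Rpl7a, 20 in Rpl27a, 11 in Rps18, 10 in Rplp2 and Rps6 and 9 in Rps24.

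The table held 71 annotated starts for 60 member genes. A start with pyrimidines at all of its first 5 bases was found in 16 of them (22.5%), against 4.44% of all 32851 promoters. For the other starts it says only that these letters are not at the annotated position. In the 300-base promoters, either strand, CTTTCC was present in 49.3% of members and 26.6% of all promoters. CCGGAAG, letters of the ETS factor site, was present in 35.2% against 8.86%, and AAGATGGC, letters of the YY1 site, in 11.3% against 2.75%. No motif of these contains another, and a match is a description of letters, not a bound site.

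Probes entered the test when every array of the LKO or of the control group read them well above background. This held for 126 of the 134 member probes (52 of the small and 74 of the large subunit) and for 79 of 80 genes. The gene without a tested probe was Rpl3l, the muscle form of Rpl3, whose probe was well above background on 1 of 3 LKO and 2 of 3 control arrays. The other 7 untested probes were further probes of Rps2, Rps6, Rps15a, Rps18, Rps19, Rpl22l1 and Rpl35a. No member spot was saturated. Rpl34 had no probe under the name rule and was not analysed here.

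None of the 126 probes passed limma's test at an adjusted p under 0.05, where 15 of all 23593 probes tested did (0.0636%). At an unadjusted p under 0.05, 8 member probes were higher and 1 was lower in LKO livers; the background was 10.7% higher and 10.5% lower, so the members' 6.35% higher was below it. The smallest adjusted p among members was 0.0716. In whole liver RNA, fewer cells of a type and less RNA per cell cannot be told apart.

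Most members had a narrow interval around the difference between the groups, in which slide and genotype cannot be told apart. The 95% interval of the difference lay inside 1.5-fold in both directions for 42 of 52 small subunit probes (80.8%) and 63 of 74 large subunit probes (85.1%), against 55.4% of all tested probes. The median SE was 0.11 for the members of either subunit and 0.14 for all probes. Members were also brighter. Their median level on an array was 5.98 to 6.24 for the small and 5.36 to 5.71 for the large subunit. For all tested probes it was -0.62 to -0.59, so neither comparison was made at a like level. In the main setting differences were small and leaned to higher values. Above 0 were 37 of 52 small subunit probes and 46 of 74 large subunit probes, where 52.7% of all probes were. The median difference was 0.10 for the small subunit, 0.04 for the large subunit and 0.02 for all tested probes. With normexp background correction the medians were 0.01 and -0.02, below the 0.09 of all tested probes. Above 0 were then 27 of 52 small and 35 of 74 large subunit probes, so the lean did not hold in that setting. It starts from the mean spot signal and not from the processed intensity, so more than the background step changes. With quantile normalization the medians were 0.05 and 0.01, against 0.005 for all tested probes.

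**Figure D1:**
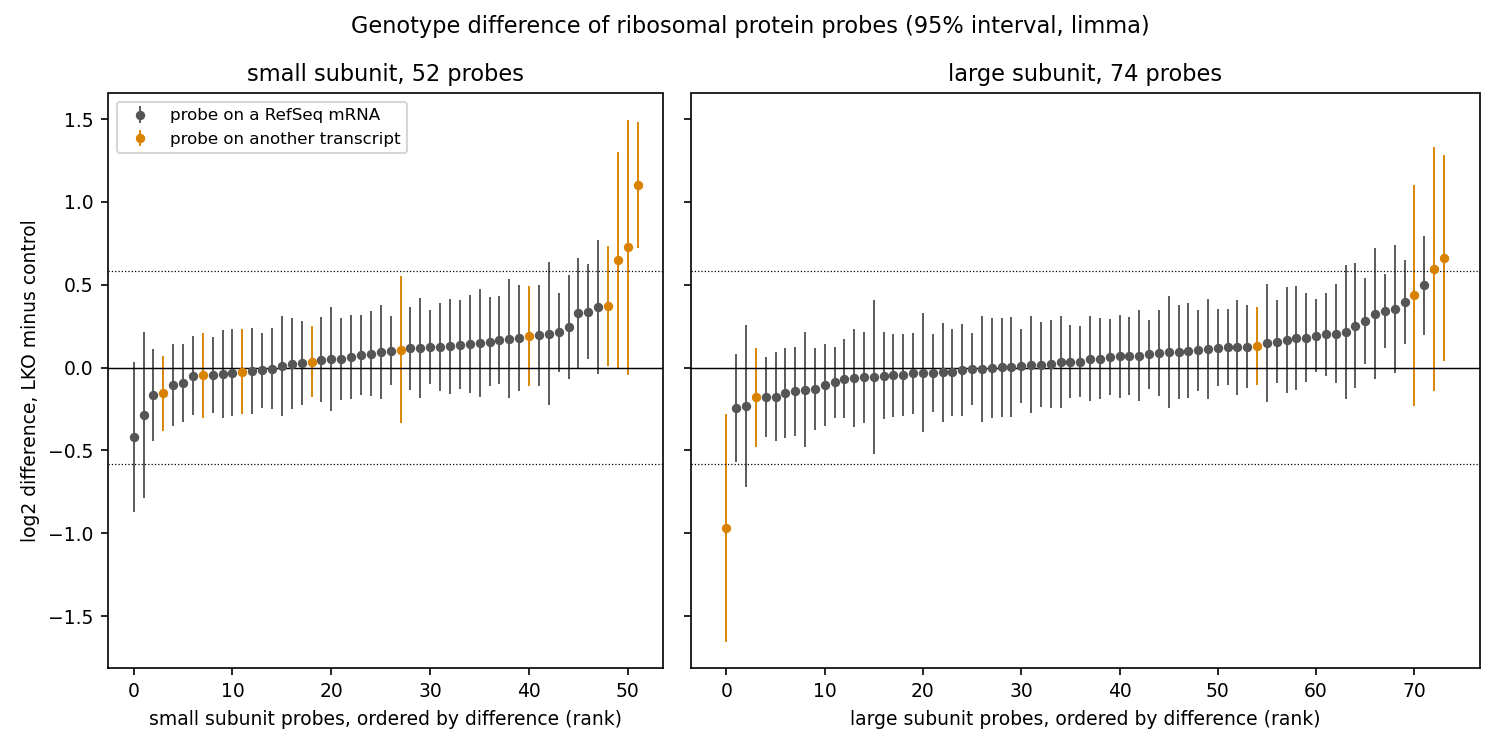
Log2 difference, LKO minus control, of the 52 small and 74 large subunit probes, ordered by size, with limma's 95% interval; dotted lines mark 1.5-fold and orange marks probes designed on transcripts other than a RefSeq mRNA. Of the intervals, 105 of 126 lie inside the dotted lines, and the highest difference (1.10, Rps13) and the lowest (-0.97, Rpl21) belong to orange probes.

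The members' medians differed between pools of the same genotype by more than their median difference between genotypes. Expressed as the deviation of each probe from its own mean over the 6 arrays, the median small subunit probe stood at 0.04, 0.11 and -0.05 in LKO pools 1 to 3, and at -0.10, -0.05 and 0.03 in control pools 1 to 3. Large subunit probes followed at 0.03, 0.09 and -0.05 in LKO pools and -0.10, -0.04 and 0.06 in control pools. The groups overlapped in both subunits, since LKO pool 3 lay below control pool 3. For all tested probes the medians stayed between -0.02 and 0.02.

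The same pool was extreme for most members. LKO pool 2 was the highest of the LKO pools for 74 of 126 member probes (58.7%, against 27.8% of all tested probes), and LKO pool 3 the lowest for 78 (61.9%, against 44.9%). Control pool 3 was the highest of the controls for 102 probes (81%, against 32.8%), and control pool 1 the lowest for 88 (69.8%, against 35.8%). The members were brighter than all tested probes at the median, so these shares were not compared at a like level. The mitochondrial ribosomal probes described below also exceeded the background in all of these shares. The 3 control pools shared a slide, and LKO pool 3 had a slide of its own. Whether this ordering came with the animals, the RNA or the hybridisation was not tested.

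**Figure D2:**
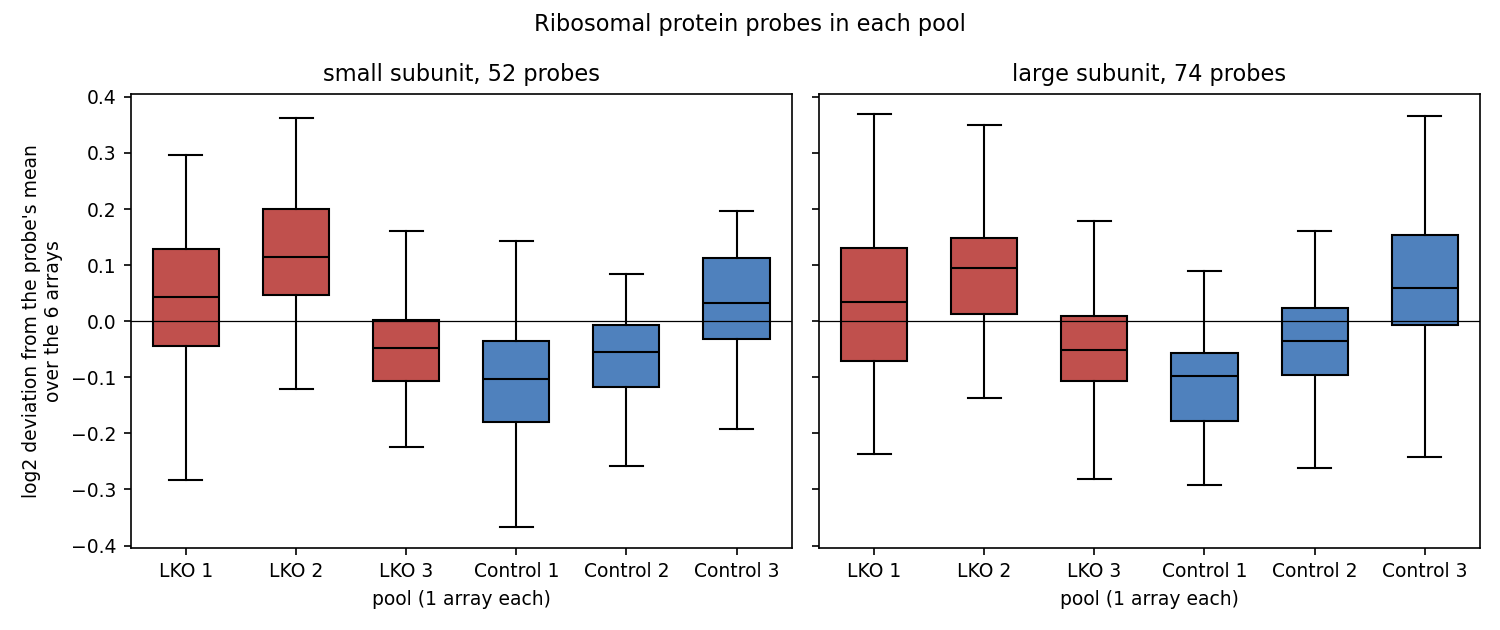
Log2 deviation of each tested member probe from its mean over the 6 arrays, by pool, for the small subunit (52 probes) and the large subunit (74 probes); boxes are quartiles with the median, whiskers reach the last probe within 1.5 box lengths and points beyond are not drawn. LKO pool 2 has the highest medians (0.11 and 0.09) and control pool 1 the lowest (-0.10 in both), with LKO pool 3 below control pool 3.

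Without LKO pool 3 the medians were 0.14 for the small and 0.11 for the large subunit, and 18 member probes were higher and 3 lower at an unadjusted p under 0.05; the background was then 16% higher and 13.4% lower, and again no member passed the adjusted threshold (smallest adjusted p 0.0599). Taken from the value table, the medians were 0.13 and 0.08, and 20 probes were higher and none lower at an unadjusted p under 0.05, where the background was 14.7% higher and 11.5% lower. No member passed there either (smallest adjusted p 0.0514), although 308 of all probes did (1.31%). The counts at an unadjusted p thus differed with the source taken for that pool, while 0 members were called each time.

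In the small subunit, the probe with the smallest p was 1 of 2 for Rps13, a protein that binds early to the ribosomal RNA of the small subunit. It read -2.70, -2.57 and -2.55 in LKO pools and -3.53, -3.56 and -4.04 in control pools. Every LKO pool lay above every control pool. The difference was 1.10 ± 0.16 (SE), or 2.15-fold, with an adjusted p of 0.0716; over the alternatives it ran from 0.84 to 1.20 with adjusted p between 0.0514 and 0.720. This probe was designed on a cDNA entry other than the RefSeq mRNA and lies at chr7:112247829-112247892 (mm7, - strand). The neighbouring probe, on the RefSeq mRNA at chr7:112247757-112247816, read 6.73, 6.73 and 6.61 in LKO pools and 6.51, 6.64 and 6.76 in control pools, a difference of 0.05 ± 0.10. The 2 probes of Rps13 thus gave unequal differences, and the one on the RefSeq mRNA had overlapping groups.

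Rps19, required for maturation of the small subunit's RNA and mutated in the human anaemia of Diamond and Blackfan, had tested probes of opposite sign. One read 2.47, 2.67 and 2.29 in LKO pools and 2.12, 2.16 and 2.13 in control pools (difference 0.34 ± 0.12, adjusted p = 0.182). The other read 5.04, 5.20 and 5.09 in LKO pools and 5.27, 5.20 and 5.32 in control pools (difference -0.15 ± 0.09, adjusted p = 0.387; -0.09 with the value table and -0.32 with normexp). The groups were apart in the first and touched in the second, and only the first was designed on the RefSeq mRNA. For Rps21, a short protein, the probe with the smallest p read 1.95, 2.47 and 2.10 in LKO pools and 1.78, 1.75 and 1.88 in control pools (0.37 ± 0.15, adjusted p = 0.225; 0.22 without LKO pool 2); its other 2 probes differed by 0.08 and 0.15. Rps24, also a Diamond-Blackfan gene in humans, had a probe at -2.26, -2.35 and -1.32 in LKO pools and -2.66, -2.65 and -2.57 in control pools (0.65 ± 0.27, adjusted p = 0.238). LKO pool 3 stood highest, the difference was 0.32 without it and 0.35 with the value table, and the RefSeq mRNA probe of Rps24 differed by 0.09 ± 0.12.

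Rps26, which lies at the mRNA exit channel, had the lowest difference of the small subunit. It read 3.90, 4.46 and 4.53 in LKO pools and 4.56, 4.72 and 4.86 in control pools. All LKO values were below all control values, LKO pool 1 by the widest margin, and the difference of -0.42 ± 0.19 did not pass the test (adjusted p = 0.262) and was -0.22 without LKO pool 1. The sequence behind this value, the array's 60-base probe, is placed by the files on the minus strand between positions 128127075 and 128127859 of chromosome 10 (mm7), a span longer than the probe.
Rps26 probe: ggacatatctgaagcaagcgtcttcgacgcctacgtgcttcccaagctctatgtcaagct
The remaining probes named for small p and a lower value were weaker. A probe of Rps3a, a protein at the mRNA exit side, differed by -0.17 ± 0.12 (-0.10 without LKO pool 3, -0.11 without control pool 3 or with the value table, -0.36 with normexp), while its other probe differed by 0.10 ± 0.09. A dim probe of Rps25, a protein near the transfer RNA exit site, differed by -0.29 ± 0.21, with control pool 1 at -2.30 and the other 5 pools between -3.12 and -2.95. Without control pool 1 the Rps25 difference was -0.05, without control pool 3 it was -0.44, and with normexp it turned to 0.06.

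Rps19, with probes at 0.34 and -0.15 as given above, was among the small subunit proteins taken for their roles. The others gave differences from 0.02 to 0.37. Rps6, whose phosphorylation by S6 kinase reports mTOR activity, read 6.33, 6.33 and 6.04 in LKO pools and 6.04, 6.06 and 6.10 in control pools, a difference of 0.17 ± 0.11. LKO pools 1 and 2 were above all controls and LKO pool 3 lay at their lower end. Rps3, at the mRNA entry channel, had probes differing by 0.20 ± 0.13 and 0.02 ± 0.12. Rps18, often used to normalise PCR, had 2 tested probes at 0.08 ± 0.10 and 0.12 ± 0.10. Rps14, whose loss underlies a human marrow syndrome, read 7.77, 7.71 and 7.37 in LKO pools and 7.42, 7.36 and 7.33 in control pools (0.25 ± 0.13). Here LKO pool 3 lay among the controls, and the difference was 0.37 without it. Rpsa, also described as a laminin receptor, differed by 0.37 ± 0.17 (0.16 with the value table) and 0.20 ± 0.18, the X-linked Rps4x by 0.14 ± 0.11 and 0.11 ± 0.18, and Rps27a, which is made as a fusion to ubiquitin, by 0.18 ± 0.13. None passed the test.

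In the large subunit the smallest p belonged to a probe of Rpl7a, a protein of the family that binds kinked RNA. It read 5.99, 6.13 and 5.79 in LKO pools and 5.36, 5.59 and 5.48 in control pools. The groups did not overlap, and the difference was 0.50 ± 0.13 (adjusted p = 0.118), the widest among the 110 tested probes designed on a RefSeq mRNA. The other 2 Rpl7a probes differed by 0.07 ± 0.10 and 0.11 ± 0.12; one of them overlaps the first in position (chr2:26920485-26920544 and chr2:26920531-26920589 in mm7). With normexp the first probe's difference was 0.27.

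Rpl4, a protein that reaches into the tunnel through which the nascent chain leaves, has 1 probe. It read 4.70, 4.74 and 4.49 in LKO pools and 4.29, 4.18 and 4.26 in control pools, with no overlap. The difference was 0.40 ± 0.10 (adjusted p = 0.125; 0.32 to 0.47 over the alternatives, adjusted p 0.0627 to 0.798). Rpl29, a peripheral protein of the large subunit whose absence in mice reduces growth, is the gene with most tested probes, 4, all on the RefSeq mRNA and all above 0. In order of position they differed by 0.19 ± 0.09, 0.34 ± 0.09, 0.35 ± 0.16 and 0.33 ± 0.16. The second of these read 3.72, 3.80 and 3.69 in LKO pools and 3.36, 3.34 and 3.49 in control pools (adjusted p = 0.129). LKO values exceeded all control values in the first 2 probes and overlapped them in the last 2. The probe sequences of both genes follow. Those of Rpl29 lie between 106159086 and 106160612 on chromosome 9 (mm7, + strand), and that of Rpl4 at chr9:64203185-64203244 (+ strand). In position, Rpl29 probe 1 overlaps the start of probe 2, and probe 3 overlaps probe 4. Over the positions they share, probes 3 and 4 differ in some letters, and which of them matches the transcript was not tested.
Rpl4 probe: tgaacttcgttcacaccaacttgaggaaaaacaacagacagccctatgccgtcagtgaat
Rpl29 probe 1: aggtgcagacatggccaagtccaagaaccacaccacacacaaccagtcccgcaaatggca
Rpl29 probe 2: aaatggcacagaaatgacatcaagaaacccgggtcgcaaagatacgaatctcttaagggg
Rpl29 probe 3: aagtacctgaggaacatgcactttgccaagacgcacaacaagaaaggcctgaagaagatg
Rpl29 probe 4: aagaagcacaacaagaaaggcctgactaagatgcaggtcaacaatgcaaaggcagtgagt

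Rpl17, at the exit of the tunnel, had 2 probes, the first at 5.93, 5.96 and 5.73 in LKO pools and 5.51, 5.59 and 5.69 in control pools (0.28 ± 0.11, adjusted p = 0.208). The second differed by 0.13 ± 0.10 in the same direction.

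Rpl21 gave the widest lower value of the family. Its probe on a predicted transcript read 1.86, 2.98 and 2.72 in LKO pools and 3.31, 3.51 and 3.63 in control pools. All LKO values lay below all control values, with LKO pool 1 farthest, and the difference was -0.97 ± 0.29 (adjusted p = 0.141; -0.64 without LKO pool 1 or with the value table). The probe on the RefSeq mRNA read -1.06, -1.26 and -1.16 in LKO pools and -1.24, -1.30 and -1.31 in control pools, a difference of 0.12 ± 0.10 in the other direction. These probes lie at chr5:145727505-145727564 and chr5:145731095-145731154 (mm7, + strand).

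Rpl10, which joins late and completes the large subunit, read 5.69, 5.86 and 5.83 in LKO pools and 5.81, 6.05 and 6.25 in control pools (-0.24 ± 0.14, adjusted p = 0.347; -0.14 without control pool 3), and its second probe differed by -0.18 ± 0.12. Rpl7 differed by -0.18 ± 0.10 (-0.11 without control pool 3), -0.13 ± 0.14 and -0.04 ± 0.10 over 3 probes. Rpl5 and Rpl11 together bind Mdm2 when ribosome assembly fails. Rpl5 read 6.75, 7.04 and 6.80 in LKO pools and 6.98, 7.02 and 7.12 in control pools (-0.18 ± 0.11, adjusted p = 0.404; -0.06 with the value table, -0.26 without LKO pool 2 and -0.27 with normexp), while the RefSeq mRNA probe of Rpl11 differed by 0.00 ± 0.13. Whether Rpl5 and Rpl11 differ from each other was not tested. Rpl23, another Mdm2 partner, differed by 0.06 ± 0.10 and 0.12 ± 0.12.

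The stalk proteins, which recruit the GTPases of translation, were all slightly above 0. Rplp2 read 7.76, 7.82 and 7.45 in LKO pools and 7.44, 7.45 and 7.53 in control pools (0.20 ± 0.12). LKO pools 1 and 2 were above every control and LKO pool 3 was not. Rplp1 differed by 0.10 ± 0.12 and Rplp0, a common reference gene, by 0.13 ± 0.10. The Rplp0 probe is placed on chromosome 8 in the files and was designed on a transcript outside RefSeq. Whether it reads the Rplp0 mRNA was not tested. Among other reference genes, Rpl13a and Rpl32 differed by 0.10 ± 0.10 and 0.05 ± 0.11.

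**Figure D3:**
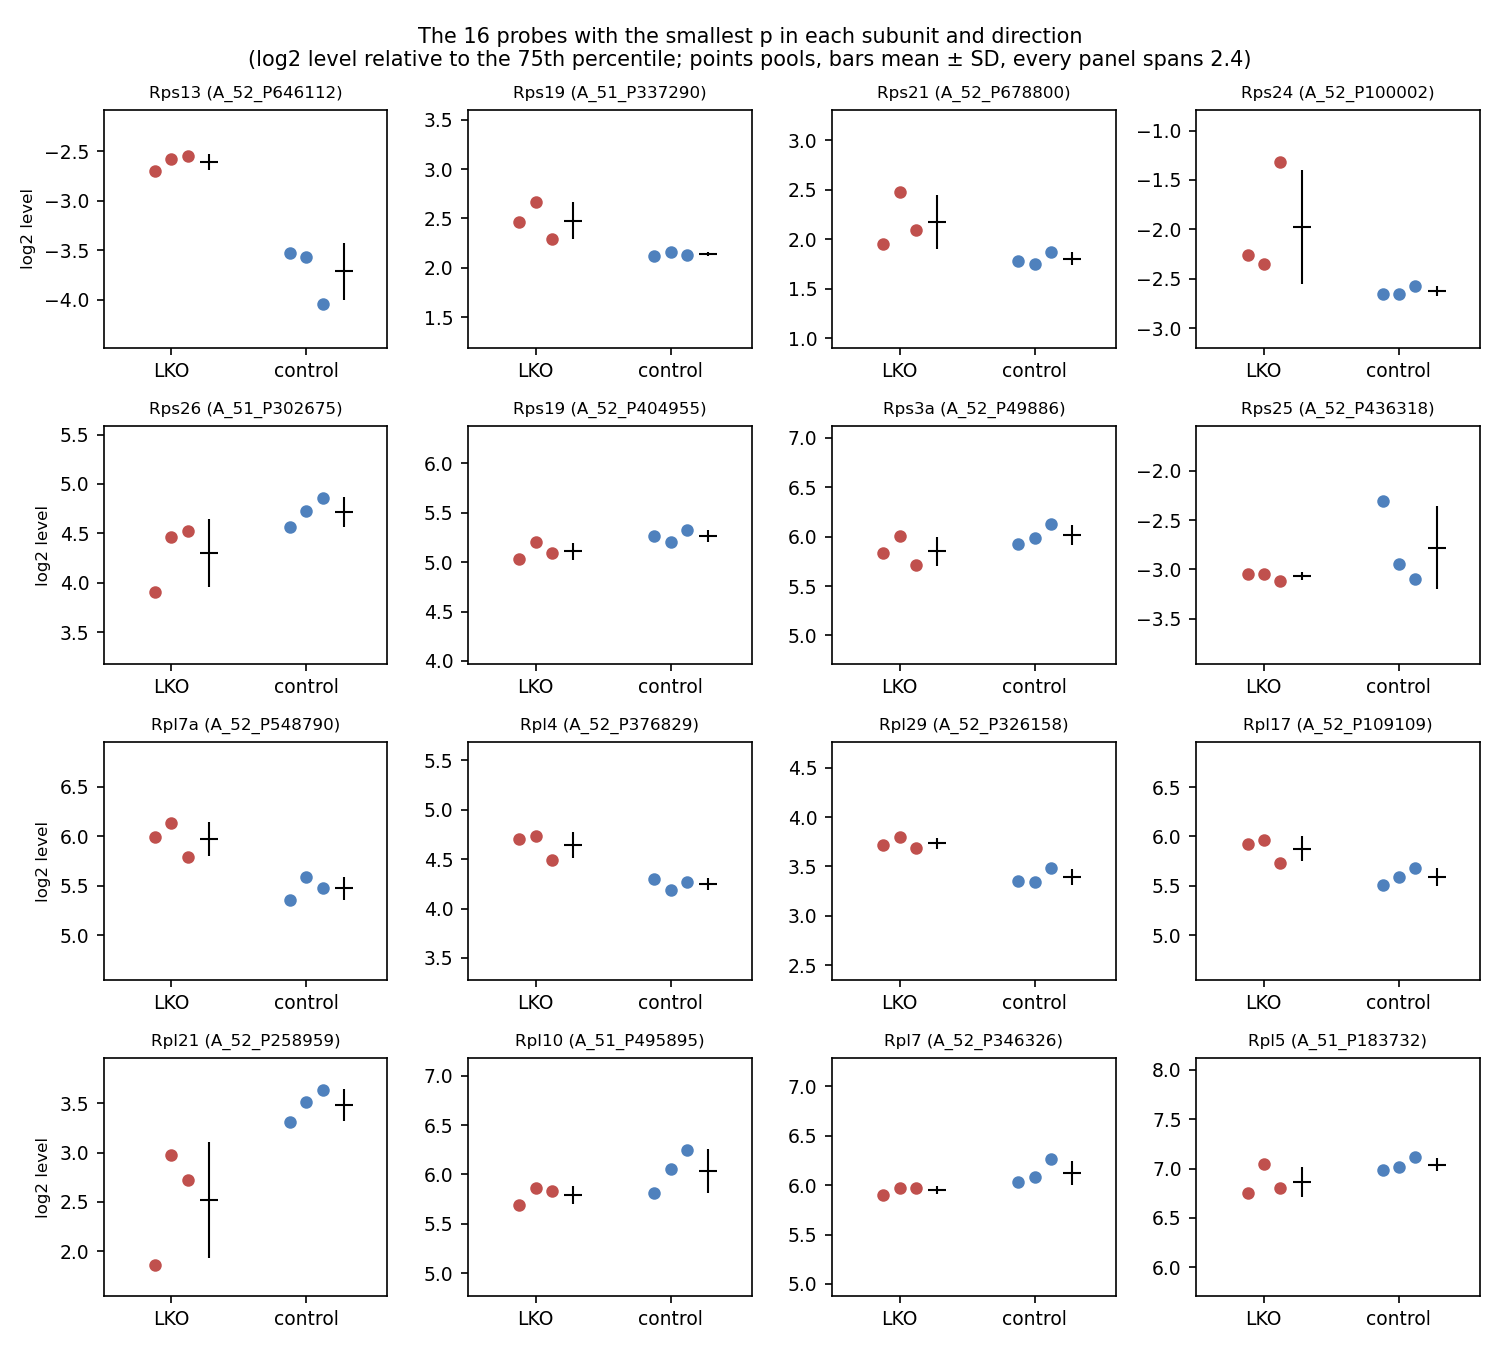
Log2 level in each pool for the 16 probes with the smallest p in each subunit and direction, LKO left and control right, with mean ± SD (n = 3) beside the points and every panel spanning the same range. Rps13 and Rpl21 show the widest gaps between groups, and in Rps24 LKO pool 3 (-1.32) stands above LKO pools 1 and 2 (-2.26 and -2.35).

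Some members have a close paralog that can take their place. Rpl22 had probes at 0.08 ± 0.09 and -0.03 ± 0.10. Its paralog Rpl22l1 read 3.95, 4.33 and 4.64 in LKO pools and 4.46, 4.37 and 4.79 in control pools (-0.23 ± 0.20), with overlapping groups. Rpl7l1, the paralog of Rpl7, differed by 0.22 ± 0.17 and 0.03 ± 0.11. Rps27 and its p53-induced paralog Rps27l both differed by 0.05, with SE 0.11 and 0.13. Rpl3 differed by 0.05 ± 0.10 and Rpl39 by 0.00 ± 0.13; Rpl10l, Rpl39l and Rps4l had no probe under these names and were not analysed here. Ribosomal protein genes have many processed copies in the genome, and to what extent a probe also reads transcripts of such copies or paralogs was not tested.

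For 37 genes more than 1 probe was tested. All probes of a gene were above 0 in 20 genes and below 0 in 7, and signs differed in 10. The widest gaps between probes of opposite sign were 1.09 in Rpl21, 0.63 in Rpl13 and 0.49 in Rps19. In Rpl13, a protein of the large subunit, the 2 RefSeq mRNA probes differed by -0.03 ± 0.11 and -0.04 ± 0.10, and its remaining probe, on another transcript, by 0.60 ± 0.31, with LKO pool 3 at -2.60 and the other 5 pools between -4.03 and -3.59. Without LKO pool 3 that difference was 0.24, and it was 0.26 with the value table.

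Probes designed on a transcript other than a RefSeq mRNA numbered 16 among those tested, and were set apart after their values had been seen. Their differences had a median of 0.16 and quartiles of -0.03 and 0.61, whereas the 110 RefSeq mRNA probes had a median of 0.06 and quartiles of -0.03 and 0.15, none beyond 0.50 in either direction. The probes on other transcripts included Rps12 at 0.73 ± 0.32, Rpl27a at 0.66 ± 0.26 and Rpl11 at 0.44 ± 0.28, against 0.12, 0.18 and 0.00 for the RefSeq mRNA probes of these genes. Without LKO pool 3 these 3 differences were 0.45, 0.41 and 0.13, and they were 0.47, 0.39 and 0.22 with the value table. Other probes of this kind lay close to the RefSeq mRNA probes, such as that of Rpl10 at -0.18 beside -0.24. Signal level differed as well. In control pools the Rpl27a and Rpl11 probes averaged -4.09 and -2.63, against 3.49 and 7.44 for their RefSeq mRNA probes. The Rpl10 probe was bright, at 6.33, and in Rpl21 the RefSeq mRNA probe was the dimmer one (-1.28 against 3.49). Whether the wider differences go with the kind of transcript or with the level was not tested. Intervals inside 1.5-fold held for 97 RefSeq mRNA probes (88.2%) and 8 of the others (50%). LKO pool 3 was the lowest LKO pool in 75 of the first kind (68.2%) and 3 of the second (18.8%).

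**Figure D4:**
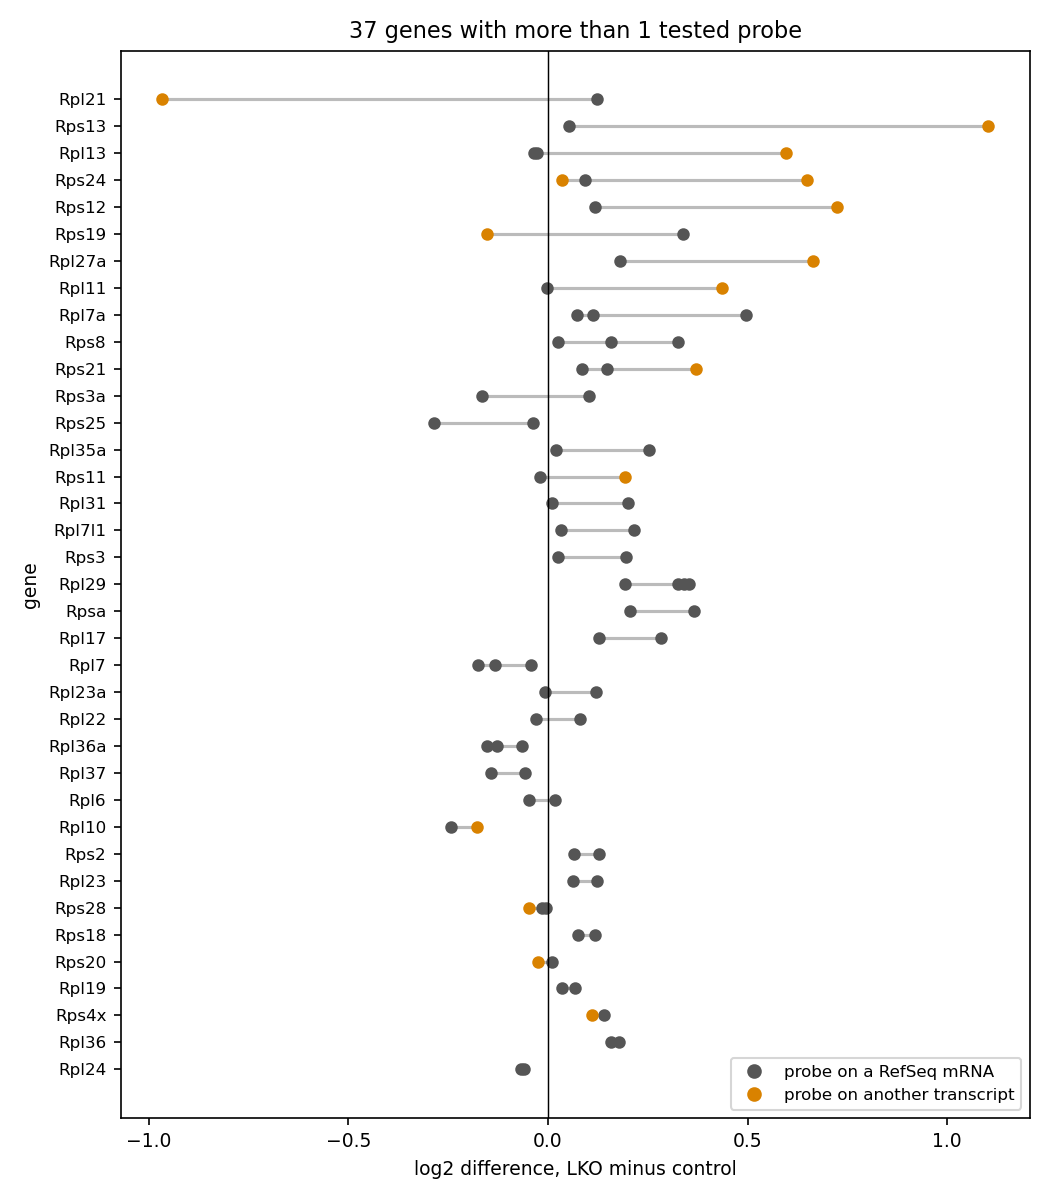
Log2 difference, LKO minus control, of every probe of the 37 genes with more than 1 tested probe, ordered by the gap between the probes; grey probes are on a RefSeq mRNA and orange ones on another transcript. The 6 widest gaps, from Rpl21 (1.09) to Rps19 (0.49), each include an orange probe.

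In 17 member probes the groups did not overlap. LKO values were all higher in 13 probes (10.3%, against 14.9% of all tested probes) and all lower in 4 (against 13.9%). The higher ones were in Rps3a, Rps13, Rps15, Rps19, Rps21, Rps24, Rpl4, Rpl7a, Rpl17, Rpl27a, Rpl31 and, with 2 probes, Rpl29. The lower ones included probes of Rps26, Rpl7 and Rpl21.

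The pyrimidine tract was set against the differences as a description, chosen after the values were known. Genes with 5 pyrimidines from an annotated start had 25 tested probes in 16 genes, of which 23 were above 0, with a median difference of 0.11 and a range of -0.03 to 0.66. Members with other annotated starts had 68 probes in 43 genes, 36 above 0 and a median of 0.01, and the 20 genes without an entry in the promoter table had 33 probes, 24 above 0 and a median of 0.12. None of the 3 sets held a called probe. Whether the sets differ was not tested.

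Among ribosomal protein genes whose names the rule does not catch, differences were small in the following: Fau 0.09 ± 0.11, and Gnb2l1 0.01 ± 0.13 and 0.01 ± 0.12. Rpl36al, the paralog of Rpl36a, read 5.05, 5.14 and 4.88 in LKO pools and 4.72, 4.75 and 4.75 in control pools (0.28 ± 0.10, adjusted p = 0.189). All LKO values were above the controls there, while the 3 probes of Rpl36a differed by -0.15, -0.13 and -0.06.

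Around the ribosome, no probe of the lists described next passed the adjusted test (background 0.0636%); counts are at an unadjusted p under 0.05, where the background was 10.7% higher and 10.5% lower. Other TOP mRNAs of the translation apparatus had 26 tested probes with none past that level in either direction and a median difference of 0.01. Their smallest p values were both in Eef2, the elongation factor that moves the ribosome along, at -0.36 ± 0.15 and -0.26 ± 0.11. Ribosome assembly genes had 1 probe higher and 1 lower of 32, with a median of 0.04. These were Ncl, which encodes nucleolin, at 0.37 ± 0.14 and Nola3, a protein of the RNA pseudouridylation complex, at -0.41 ± 0.12.

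RNA polymerase I and its factors, which make the ribosomal RNA, had 2 probes higher and 2 lower of 12 (median 0.02), led by Taf1b at 0.44 ± 0.11 and Ttf1, a terminator of that polymerase, at -0.64 ± 0.19. Nutrient signalling to translation had 1 higher and 3 lower of 30 and a median of -0.12. The smallest p there belonged to Eif4ebp2, a repressor of cap-dependent translation that mTOR inactivates. It read 1.46, 1.87 and 2.45 in LKO pools and 3.40, 2.85 and 2.75 in control pools, without overlap (-1.07 ± 0.29, adjusted p = 0.126). Eif4ebp1 differed by -0.53 ± 0.15.

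Initiation, elongation and release factors had 3 higher and 5 lower of 46, with a median of 0.06. Eif4a1, the helicase that opens mRNA leaders, read 2.37, 2.49 and 2.06 in LKO pools and 1.29, 1.31 and 1.66 in control pools, and its difference of 0.88 ± 0.16 was the nearest of these lists to the threshold (adjusted p = 0.082). Eif5b, which joins the subunits, differed by -0.67 ± 0.16 (adjusted p = 0.107).

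Mitochondrial ribosomal proteins, which build the separate ribosome of the organelle, were set beside the cytosolic ones. None of their 116 tested probes in 75 genes was called, 5 were higher and 4 lower at an unadjusted p under 0.05 (background 10.7% and 10.5%), and 69 were above 0 (background 52.7%) with a median of 0.03 and a range of -2.17 to 0.47. The groups did not overlap in 12 of 116 probes that were higher and 13 of 116 that were lower. Among the cytosolic members these were 13 of 126 and 4 of 126. Over all tested probes this held for 14.9% higher and 13.9% lower, and the higher share was 10.3% in both families. Intervals inside 1.5-fold held for 91.4% of the mitochondrial probes (background 55.4%). Control pool 1 was the lowest control for 81% (background 35.8%) and LKO pool 3 the lowest LKO pool for 75.9% (background 44.9%). Control pool 3 was the highest control for 61.2% (background 32.8%), and LKO pool 2 the highest LKO pool for 45.7% (background 27.8%). Mrps21 at 0.47 ± 0.13 and Mrps2 at -0.37 ± 0.09 had the smallest p. A test between the cytosolic and mitochondrial families was not made.

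Markers of other cells were measured beside the members. No probe of the macrophage, lymphocyte, erythroid, pancreas, adipose, bile duct or stellate lists was called. The summed linear level over the 9 macrophage probes was 29.5 to 33.0 in LKO pools and 23.5 to 39.2 in control pools, and over the 7 erythroid probes 168 to 227 in LKO pools and 178 to 198 in control pools. Lymphocyte probes summed to 1.16 to 1.49 in LKO pools and 1.23 to 2.03 in control pools, and pancreas probes to 10.9 to 15.0 in LKO pools and 12.1 to 14.3 in control pools. Adipose probes summed to 9.37 to 10.1 in LKO pools and 7.64 to 9.77 in control pools, while a probe of the adipose gene Cfd read -3.40, -4.29 and -6.23 in LKO pools, not well above background in the last of these, and -2.22, 0.08 and -1.46 in control pools (-3.44 ± 0.84, adjusted p = 0.114), the lowest difference of all tested probes. Among the 4 adipose probes tested, 3 were above 0. They included a Fabp4 probe at 0.33 ± 0.10 (adjusted p = 0.151), with every LKO pool above every control pool. Stellate probes summed to 4.34 to 4.68 in LKO pools and 3.96 to 6.21 in control pools. Bile duct probes summed to 1.04 to 1.19 in LKO pools and 1.07 to 1.47 in control pools, and Sox9, a bile duct factor, had the smallest p of these markers (-1.20 ± 0.13 and -1.12 ± 0.13 over 2 probes, adjusted p = 0.0571 and 0.0654; -0.69 and -0.65 with the value table, adjusted p = 0.323 and 0.290). The other 4 of the 6 tested bile duct probes were above 0, and the median difference of that list was 0.04. The part of these cells in the members' differences was not tested.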

How the data were processed

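Liver RNA of 3 SIRT1 LKO pools and 3 Lox control pools (groups from the sample titles) was measured on 1-colour Agilent arrays. Per the submitters' processing notes, spot intensity in the scanner files came from Agilent Feature Extraction 9.5; the processed intensity was background-subtracted and spatially detrended, per the file headers. A value table, deposited by the authors, gives linear intensity from Rosetta Resolver's error model, per the labels. Flags per spot are 0 or 1 values that the authors deposited.

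Outlier spots were set missing, log2 intensities of a probe's spots were averaged, and the array's 75th percentile was subtracted. Probes that every array of either group read well above background were fitted with limma 3.58.1 (lmFit, eBayes, genotype only) in R 4.3.3. Tests are two-sided with Benjamini-Hochberg adjustment over 23593 probes and a threshold of 0.05; SE is limma's. The fit was tested on simulated data. The replicate is a pool of unseparated animals, and the p-values rest on the spread between pools, which may be technical in part.

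Members and lists were chosen with earlier results of these data known. The genes named are Sirt1, the 4 with the smallest p per subunit and direction, genes set by role or paralogy, the widest probe disagreements, untested genes and the 2 probes of each translation list with the smallest p. Coordinates are those of the files (mm7). Replicate numbers did not pair the pools (same-number correlations 0.01, -0.04 and -0.09). The 17 alternatives comprised background correction, normalization, filters, blocks, variance model, source of values and each pool left out. Figures were drawn with matplotlib 3.10.9. Results of 2 genes chosen by these rules are not reported here.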

Additional observations from a re-analysis of the deposited data

How the results depend on the processing

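No member probe of either subunit was called under any of the 17 alternatives, with a smallest adjusted p of 0.0514. An unadjusted p under 0.05 was reached by 2 to 21 members, against 9 in the main setting. There were 21 of 126 without LKO pool 3, 5 of 126 without control pool 2 and 2 of 126 with normexp. Counts over all tested probes moved as well. They were 5008 of 23593 in the main setting, 7200 of 24506 without LKO pool 3, 3337 of 23976 without control pool 2 and 1568 of 23593 with normexp. The 15 calls over all probes (1 higher, 14 lower) became 24 with 1 probe per gene (5 higher, 19 lower), 91 with an intensity trend and robust variance (23 higher, 68 lower), 49 with a filter on all 6 arrays (8 higher, 41 lower) and 308 with the value table (147 higher, 161 lower). They became 0 with no filter on dim probes, normexp, the slide as a random block (correlation 0.31) or the replicate block, where 6859, 1568, 2632 and 4366 probes had an unadjusted p under 0.05. Leaving out 1 pool gave 0 to 3 calls: 3 without control pool 2, 1 without control pool 3 and 0 without control pool 1 or any LKO pool, with 3287 to 7200 probes at an unadjusted p under 0.05. The median difference of the small subunit, 0.10, ran from 0.04 to 0.14 over left-out pools and was 0.013 with normexp; that of the large subunit, 0.04, ran from 0.02 to 0.11 (0.02 without LKO pool 2, 0.03 without control pool 1, 0.10 without control pool 3 and 0.11 without LKO pool 3), and was 0.01 with quantile normalization and -0.02 with normexp. The 16 probes named for small p were picked from the same arrays that the alternatives reuse, so a kept direction is not a separate check. Of them, 15 kept their direction under every alternative that included them, and the Rps25 probe turned to 0.062 with normexp. The cause of these changes was not tested. The replicate block changed no member's call. With 3 arrays a group their number, and for probes near background their signal, limits precision.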
